A study of Mus musculus with 6 samples.

Results

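Eph receptors and ephrins, a family of receptors and ligands that signal at contacts between cells, were examined in the lens of newborn mice. The members were 10 genes fixed by name: the receptors Epha2, Epha3, Epha4, Epha7, Ephb2 and Ephb4 and the ligands Efna1, Efna5, Efnb1 and Efnb2. Every probe set (a group of short array probes for 1 transcript) annotated to a single one of these symbols was taken. This gave 20 probe sets for 9 genes, out of 22626 tested probe sets and 12393 genes. The annotation used here lists no probe set for Ephb2, which was not analysed.

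The mutants, named Le-AP-2alpha, carry a conditional mutation of Tfap2a (older symbol Tcfap2a), the gene of the transcription factor AP-2alpha, and the controls were wild-type littermates. Lenses of both groups were dissected at P0, the day of birth (postnatal day 0), and each group had 3 arrays, 6 in all. In the published Le-Cre line, from which the name of these mutants comes, a Pax6 regulatory fragment drives Cre in the ectoderm that forms the lens and the surface of the eye, so tissues next to the lens can also be targeted. The labels do not list the Tfap2a alleles or say whether the littermates carried Cre or floxed alleles. The design text calls the samples biological triplicates, but how many animals gave each sample is not stated, and the p-values reflect spread among these arrays. The title of the series asks what AP-2alpha does within the lens, including how lens epithelial cells keep their character.

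Eph receptors are receptor tyrosine kinases, and their ligands are themselves bound to the membrane of the neighbouring cell. Ephrin-A ligands hold to the membrane by a lipid anchor and mainly bind EphA receptors, ephrin-B ligands cross the membrane and mainly bind EphB receptors, and signals run into both cells. In the mouse lens EphA2 is known for the ordered packing of equatorial epithelial cells and fibre cells, and ephrin-A5 for the cadherin adhesion and order of the lens epithelium.

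Array medians ran from 5.19 to 5.32 (log2). Wild-type replicate 1 was the odd array, since its correlation over probe sets with any other was 0.926 to 0.945 and the remaining 5 correlated at 0.974 to 0.985. Values are therefore also given without it. The targeted gene had higher, not lower, means in mutants. Its 3 probe sets differed by log2 values of 0.62 ± 0.33, 1.57 ± 0.49 and 0.36 ± 0.36 (SE), each with a limma adjusted p of 0.999. The groups overlapped on all but the first, and wild-type replicate 1 was the lowest array on the first and second. Where the probes of Tfap2a lie relative to the deletion is not known here. Lens fibre markers (11 genes) had list means of 11.59 to 12.09 in mutants and 12.12 to 12.43 in wild types, which did not overlap, with 10 lower and 1 higher in mutants and a median log2 difference of -0.28. Without mutant replicate 1 the fibre counts were 6 lower and 5 higher, with a median of -0.02. RNA of whole lenses cannot tell fewer cells of a type from less RNA per cell.

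No member passed the test, and Efna1, a ligand gene, was the only member whose mutant and wild-type arrays did not overlap. limma called 0 of the 20 member probe sets at an adjusted p under 0.05, where it called 0% of all 22626 probe sets, and every member had an adjusted p of 0.999. In all, 8 member probe sets had a higher mean in mutants and 12 a lower one, with a median log2 difference of -0.09 against -0.02 over all probe sets. Without wild-type replicate 2 the members were 11 higher and 9 lower, with a median of 0.04. The groups did not overlap for 2 member probe sets, both lower in mutants and both of Efna1. Over all probe sets, 4.61% were apart in that direction and 3.74% in the other. An unadjusted p under 0.05 was reached by the same 2 probe sets, against 1.58% of all probe sets for lower values in mutants. No member (0) reached it with a higher value, against 1.7% of all. The 2 probe sets read 1 gene in the same RNA and are not independent. Taking each gene by its brightest probe set, 1 of the 9 measured members was apart (Efna1, lower). Over all genes, 4.58% were apart lower and 4.22% apart higher.

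**Figure D1:**
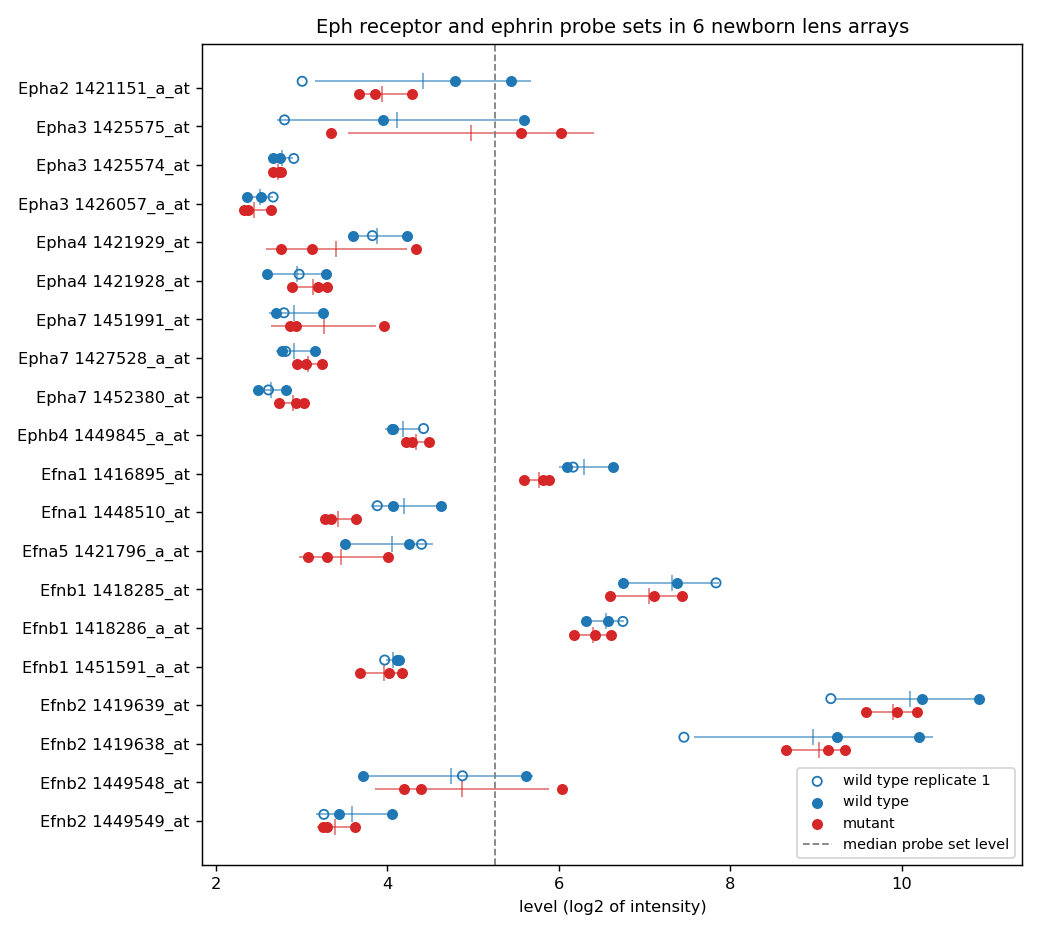
Levels of the 20 member probe sets (x axis, log2 of intensity) in 3 mutant arrays (red) and 3 wild-type arrays (blue, replicate 1 as an open circle); vertical ticks and horizontal lines are group means ± SD, and the dashed line is the median probe set at 5.26. The red and blue points are apart only for Efna1 1416895_at and Efna1 1448510_at, and 15 of the 20 probe sets have means left of the dashed line.

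All 10 receptor probe sets were below the median probe set level of 5.26 and are called dim here, while 5 of the 10 ligand probe sets were above it: 1 of Efna1, 2 of Efnb1 and 2 of Efnb2. Probe sets differ in how well they bind their target, so a dim value is not a measure of how much receptor the lens holds, and these counts do not compare receptors with ligands. Differences of dim probe sets can also be compressed by the processing.

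Efna1 encodes ephrin-A1, a ligand of EphA2 and other EphA receptors. On probe set 1416895_at its log2 level was 5.89, 5.82 and 5.59 in the mutants and 6.17, 6.10 and 6.63 in the wild types. All 3 mutants were below all 3 wild types, with a gap between the nearest arrays smaller than the range within either group. The means were 5.77 ± 0.16 and 6.30 ± 0.29 (SD, n = 3). The difference of -0.53 ± 0.22 (SE) is 1.45-fold lower in mutants, with a 95% confidence interval of -1.05 to -0.01 and a limma adjusted p of 0.999.

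The dim second probe set of Efna1, 1448510_at, gave the same order of groups. Its levels were 3.64, 3.35 and 3.28 in mutants and 3.89, 4.62 and 4.07 in wild types. The difference was -0.77 ± 0.25 (SE, 95% interval -1.37 to -0.17), or 1.71-fold lower. The exact permutation test over the 6 arrays gave a two-sided p of 0.1 for each probe set, the smallest that 3 arrays against 3 allow. When each array was left out in turn the difference stayed between -0.63 and -0.36 on the first probe set and between -0.93 and -0.56 on the second. Without wild-type replicate 1 it was -0.60 and -0.93, with limma adjusted p of 0.894 and 0.752.

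Efna5 encodes ephrin-A5 and had 1 probe set, which was dim. Its level was 4.01, 3.30 and 3.08 in mutants and 4.40, 3.51 and 4.25 in wild types. The groups overlapped, since mutant replicate 1 lay above wild-type replicate 2. The difference was -0.59 ± 0.35 (SE), with a 95% interval of -1.42 to 0.24 that takes in 0 as well as a drop larger than that of Efna1. It kept its sign with each array left out, from -0.86 to -0.40.

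Epha2 encodes the receptor EphA2 and had 1 probe set, also dim. Its level was 4.29, 3.67 and 3.86 in mutants and 3.01, 5.45 and 4.79 in wild types. The wild types held both the lowest array, replicate 1, and the 2 highest arrays, and the wild-type SD of 1.26 was well above the mutant SD of 0.32. With all arrays the difference was -0.48 ± 0.61 (SE, 95% interval -1.94 to 0.98). Without wild-type replicate 1 it was -1.18 ± 0.29 (interval -1.89 to -0.47), with a limma adjusted p of 0.737. Without wild-type replicate 2 it was 0.04. The value for Epha2 therefore rests on which wild-type arrays enter.

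Without wild-type replicate 1, 3 of the 20 member probe sets, that of Epha2 and both of Efna1, had an unadjusted p under 0.05 with lower values in mutants, against 2.87% of all probe sets. The adjusted p called 0 members and 0% of all probe sets in that fit. In the plot of differences the interval of Epha2 leaves 0 in that fit alone.

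**Figure D2:**
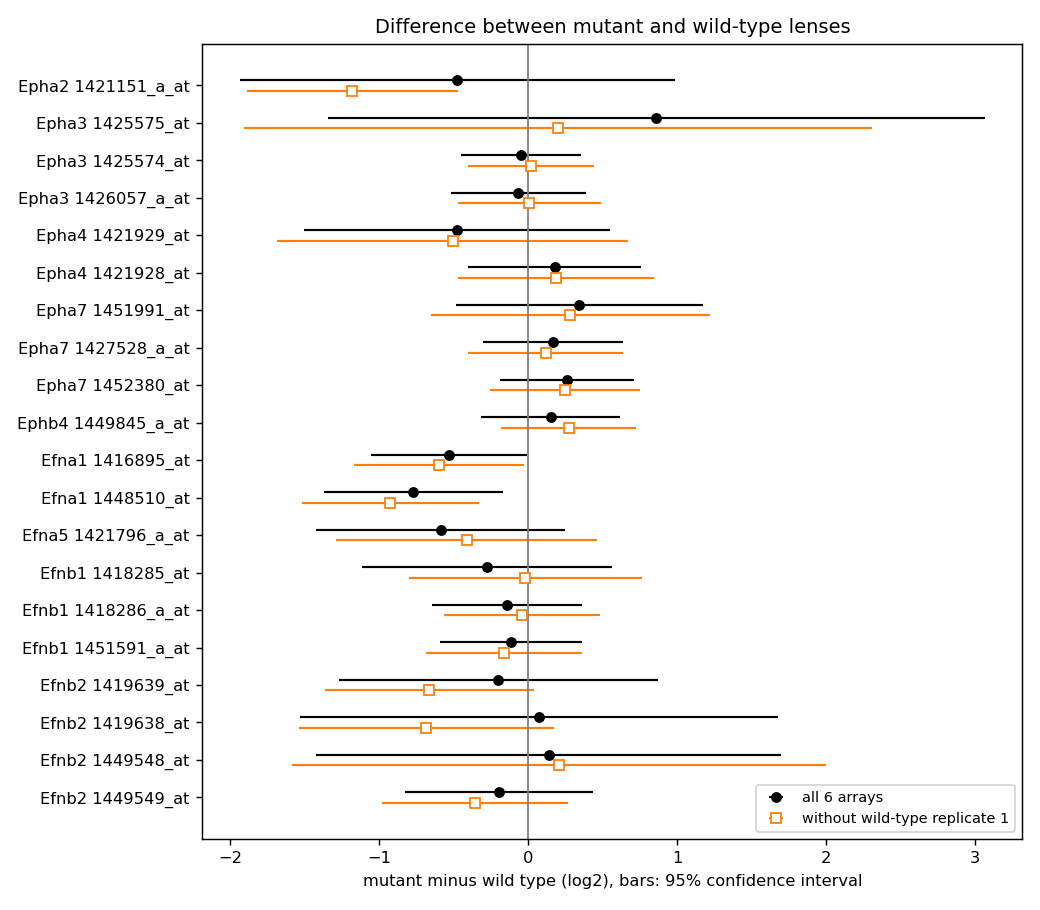
Mutant minus wild type (x axis, log2) with the 95% confidence interval of the limma fit for each member probe set, with all 6 arrays (black circles) and without wild-type replicate 1 (orange squares). Intervals on 1 side of 0 are those of both Efna1 probe sets in both fits and of Epha2 without that array, at -1.18.

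The receptor Epha3, best known from mesenchyme and from axon guidance, had the widest spread among the members. Its brightest probe set, 1425575_at, was at 5.56, 3.35 and 6.03 in mutants and 2.80, 5.60 and 3.95 in wild types. Its range over the 6 arrays was 3.22, and 99% of all probe sets had a smaller spread within groups. High and low arrays occurred in both groups, and the difference was 0.86 ± 0.92 (SE), or 0.20 without wild-type replicate 1. The other 2 probe sets of Epha3 did not follow it: they had ranges of 0.24 and 0.34 at levels near the bottom of the arrays, with differences of -0.05 ± 0.17 and -0.07 ± 0.19.

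Epha4, a receptor that binds ligands of both classes, was dim on both probe sets. The brighter, 1421929_at, was at 4.34, 3.12 and 2.77 in mutants and 3.83, 4.23 and 3.60 in wild types, a difference of -0.48 ± 0.43 (SE). Mutant replicate 1 was the highest of the 6 arrays, and without it the difference was -0.94. The second probe set differed by 0.18 ± 0.24, so the 2 probe sets of Epha4 did not share a sign.

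Epha7, a receptor of the nervous system that also occurs in shortened forms, had 3 dim probe sets, each with a slightly higher mutant mean. The brightest, 1451991_at, was at 3.97, 2.87 and 2.94 in mutants and 2.80, 3.25 and 2.71 in wild types, a difference of 0.34 ± 0.35 (SE). The others differed by 0.17 ± 0.20 and 0.26 ± 0.19. The first rested on mutant replicate 1, since without it the difference was -0.01, and with array weights 1427528_a_at, one of the others, was at -0.04.

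Efnb2 encodes ephrin-B2, a ligand known from arteries and from eye development. Probe set 1419639_at was at 10.18, 9.58 and 9.94 in mutants and 9.17, 10.90 and 10.23 in wild types. Probe set 1419638_at was at 9.33, 8.65 and 9.14 in mutants and 7.46, 10.21 and 9.24 in wild types. On both, wild-type replicate 1 was the lowest array, wild-type replicate 2 the highest, and the mutants lay between them.

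The differences of these Efnb2 probe sets were -0.20 ± 0.45 and 0.07 ± 0.67 (SE), with 95% intervals of -1.27 to 0.87 and -1.53 to 1.67. Without wild-type replicate 1 they became -0.67 and -0.68, with limma adjusted p of 0.924 and 0.94. Without wild-type replicate 2 they became 0.20 and 0.69. The 2 dim probe sets of Efnb2 differed by 0.14 ± 0.65 and -0.20 ± 0.26.

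Efnb1 encodes ephrin-B1, an X-linked ligand that acts in the sorting of cells into separate fields. Its probe set 1418285_at was at 7.44, 6.59 and 7.12 in mutants and 7.84, 7.38 and 6.75 in wild types. Probe set 1418286_a_at was at 6.18, 6.61 and 6.43 in mutants and 6.75, 6.32 and 6.57 in wild types. The groups overlapped on both, with differences of -0.28 ± 0.35 and -0.14 ± 0.21 (SE). Without wild-type replicate 1 these were -0.02 and -0.04, and with array weights the first was 0.21. The remaining, dim probe set differed by -0.12 ± 0.20, or -0.17 without wild-type replicate 1. The second Efnb1 probe set had a 95% interval of -0.65 to 0.36, among the narrower ones in the family.

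Ephb4 encodes a receptor of ephrin-B2 known from veins. Its single, dim probe set was at 4.22, 4.49 and 4.29 in mutants and 4.43, 4.06 and 4.06 in wild types. The groups overlapped, with a difference of 0.15 ± 0.19 (SE) and a 95% interval of -0.32 to 0.62.

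Wild-type replicate 1 was the lowest of the 6 arrays for 4 of the 20 member probe sets, and for 24.2% of all probe sets. Wild-type replicate 2 was the highest for 5 of the 20, and for 16% of all. In 3 member probe sets, those of Epha2 and the 2 bright ones of Efnb2, leaving out wild-type replicate 1 moved the difference by more than its standard error.

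**Figure D3:**
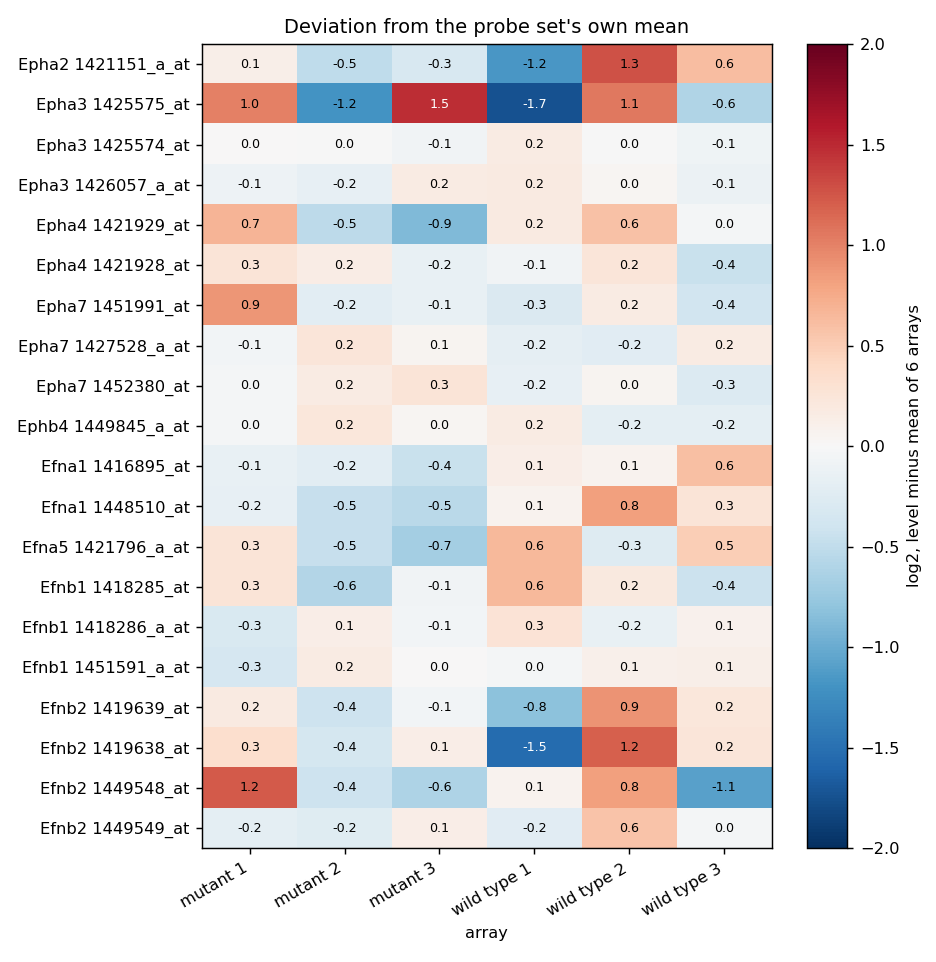
Deviation of each array (columns) from the mean of the 6 arrays for each member probe set (rows), on the log2 scale from blue (below) to red (above). Wild-type replicate 1 is blue and wild-type replicate 2 red for Epha2, Epha3 1425575_at and the bright Efnb2 probe sets. For Epha3 1425575_at mutant replicates 1 and 3 are red as well. Both Efna1 probe sets are below their mean in all mutants and above it in all wild types.

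Genes whose pattern over the 6 arrays was most like that of a member were found by the mean absolute difference between deviations from each gene's own mean, over 6764 named genes at or above the median level. For Epha2, whose own mean absolute deviation was 0.67, the nearest were Fam169a, Kpna3, a nuclear import receptor, and Cpeb1, which binds messenger RNA, at 0.16 each. For Efna5 they were Osbpl9, Pgd, an enzyme of the pentose phosphate pathway, and Micos13 of the mitochondrial inner membrane, at 0.13, 0.15 and 0.16. Efnb2 and Epha3 were added after their values were seen. Efnb2 was nearest to Prpf39, Spg20 and Mcfd2 at 0.12, 0.13 and 0.14, and Epha3 to Cyp1b1, Slc25a44 and Cdk14 at 0.30, 0.39 and 0.40. In all 3 genes nearest to Epha2 and all 3 nearest to Efnb2, wild-type replicate 1 was the lowest array and wild-type replicate 2 the highest. Epha2 and Efnb2 have the same lowest and highest arrays, so this order follows from how the genes were picked and is no separate result.

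AP-2 proteins bind GC-rich sites with GCC and GGC separated by a few bases, so the starts of the member genes were searched for GCCNNNGGC and GCCNNNNGGC. Both motifs read the same on either strand and do not overlap in the matches found. RefSeq windows of 250 bases before to 50 after each gene start (GRCm38.p6) were held for all 10 genes, 12 windows in all. GCCNNNGGC was in 1 of the 12, that of Ephb2, against 16.6% of all windows. GCCNNNNGGC was in 6 of the 12, against 14.8% of all windows, but 2 of the 6 are overlapping windows of Epha7 that hold the same stretch, so by gene it was in 5 of 10. The member windows had a median GC content of 64.3%, against 52.7% over all windows, and GC content was not adjusted for. The stretches are shown for the 5 measured genes that hold a match, with the motif in capitals.
Efna1: tagccatcaaGCCCTGGGGCagcgcgcgtc
Efna5: ccgcgctgccGCCGCCCGGCcccgcacgca
Efnb2: ggcgcggcgaGCCAATGGGCtgcgtttgac
Epha3, first match: ctggctgccaGCCATGGGGCtgccctgctc
Epha3, second match: cttcttcagcGCCCGCTGGCgacggcacta
Epha7: gtagggacccGCCCCCCGGCcgtgggaatc

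On GRCm38.p6 these lie at chr3:89279712-89279741 (Efna1, minus strand, before the more downstream of its 2 annotated starts), chr17:62881495-62881524 (Efna5, minus), chr8:8661289-8661318 (Efnb2, minus), chr16:63864266-63864295 and chr16:63864237-63864266 (Epha3, minus) and chr4:28813016-28813045 (Epha7, plus). All are upstream of the start they were found by. The windows of Epha2, Epha4, Efnb1 and Ephb4, and the more upstream window of Efna1, hold neither string. A match describes the letters only, and genes with a match include Efna1, lower in all mutants, as well as Epha7, with higher mutant means.

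The other genes of the pathway were taken from 5 lists, each gene by its brightest probe set. limma called 0 of the 73 measured genes, as it called 0% of all 12393 genes. An unadjusted p under 0.05 was reached by 1 gene higher in mutants (Epha8), against 2.13% of all genes, and by 2 lower (Cdh1 and Bfsp1), against 1.72%. Of the 73, 41 had higher and 32 lower means in mutants, with a median log2 difference of 0.07 against -0.01 over all genes. The groups did not overlap for 4 genes lower in mutants, against 4.58% of all genes, and for 1 higher, against 4.22%.

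Of the remaining Eph receptors, 6 of 8 were measured, 3 with higher and 3 with lower mutant means. Epha8, a receptor first known from brain, was dim, at 5.73, 5.76 and 5.15 in mutants and 4.32, 4.45 and 5.32 in wild types, a difference of 0.85 ± 0.33 (SE). Epha5, a receptor of neurons, differed by 0.51 ± 0.32. Neither gene separated the groups, and both had a limma adjusted p of 0.999.

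All 4 remaining ephrins had higher mutant means (3 of them without mutant replicate 2), with a median log2 difference of 0.39, against -0.01 over all genes. Efnb3, a ligand of the nervous system, was at 6.25, 5.26 and 5.66 in mutants and 5.39, 4.76 and 5.03 in wild types, a difference of 0.66 ± 0.31 (SE). Efna2, a ligand that guides retinal axons, differed by 0.79 ± 0.48. The groups overlapped for each of the 4, and Efna3 and Efna4 differed by 0.12 ± 0.24 and 0.07 ± 0.17. Efna2, Efna3 and Efna4 were dim.

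Genes that carry the signal inside the cell showed no common direction. Of 34 measured genes of forward signalling from the receptor, 19 had higher and 15 lower means, with a median log2 difference of 0.07. Sla, an adaptor of receptor kinases, differed by 0.65 ± 0.31 (SE) and Vav3, a guanine nucleotide exchange factor, by 0.84 ± 0.40, or 0.44 without wild-type replicate 1. Both were dim. Of 13 genes of reverse signalling and ligand cleavage, 9 had higher and 4 lower means, with a median of 0.22, and without wild-type replicate 1 the counts were 6 and 7. Mmp14, a membrane protease, differed by -0.40 ± 0.29 and Ptpn13, a phosphatase of ephrin-B, by 0.25 ± 0.20.

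Partners in lens cell packing and adhesion held the largest single difference of the 5 lists. Cdh1, E-cadherin, which marks the lens epithelium, was at 7.55, 7.68 and 7.12 in mutants and 8.21, 9.14 and 8.89 in wild types. All mutants were below all wild types, with a difference of -1.29 ± 0.30 (SE) and a limma adjusted p of 0.999. Bfsp1, a beaded filament protein of fibre cells, was likewise apart, with a difference of -0.65 ± 0.22. Of the 16 measured genes in the list 10 had lower and 6 higher mutant means, and the median was -0.05. These counts moved with single arrays: 14 were lower and 2 higher without wild-type replicate 1 (median -0.15), 7 lower and 9 higher without mutant replicate 2 (median 0.04), and 8 each way without mutant replicate 3, wild-type replicate 2 or wild-type replicate 3. The lower fibre marker means in mutants stand beside the value of Bfsp1, which is also on the fibre list, and their part in it was not tested.

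**Figure D4:**
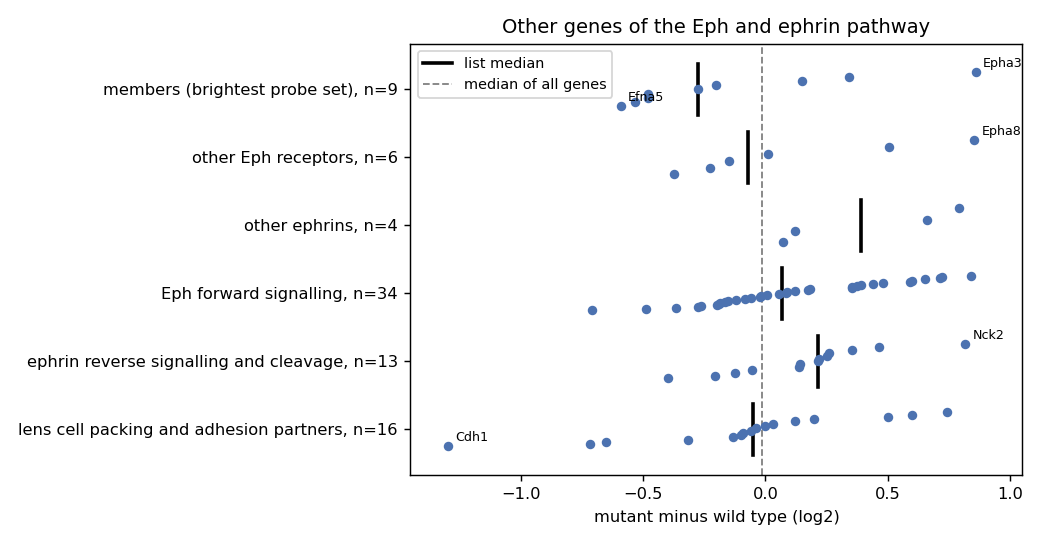
Mutant minus wild type (x axis, log2) for each measured gene of the member set and of the 5 pathway lists, 1 point per gene by its brightest probe set; black bars are list medians and the dashed line is the median of all genes at -0.01. The remaining ephrins lie right of the line with a median of 0.39, and Cdh1 is the leftmost point at -1.29.

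Markers of other cells that carry Eph receptors and ephrins were read on the same arrays. All 16 measured neural retina genes had higher mutant means (15 of them without wild-type replicate 1, 14 without wild-type replicate 2). List means were 6.80 to 7.53 in mutants and 5.44 to 6.69 in wild types, where replicate 1 was the lowest and the next was at 6.36. The median log2 difference was 1.06, or 0.61 without wild-type replicate 1. Elavl3, a neuronal RNA-binding protein, differed by 1.36 ± 0.24 (SE) and Tubb3, a neuronal tubulin, by 1.28 ± 0.40. These values stand beside the higher mutant means of Epha5, Epha8, Epha7, Efna2 and Efnb3, genes also known from neurons, and their part in those differences was not tested. Epha4 (-0.48 on its brighter probe set), Efna5 (-0.59) and the receptor Epha6 (-0.15 ± 0.19, SE), also known from neurons, had lower mutant means.

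Blood vessel markers, relevant to Efnb2 and Ephb4, had list means of 6.43 to 6.92 in mutants and 6.66 to 6.91 in wild types over 12 genes. Of these, 5 had higher and 7 lower mutant means. Markers of the corneal stroma and periocular mesenchyme, relevant to Epha3, had list means of 4.93 to 5.90 in mutants and 4.64 to 5.06 in wild types, with 10 of 12 higher. Their median log2 difference was 0.47. Without mutant replicate 1, the array at 5.90, it was 0.23 with 9 of 12 higher. Without wild-type replicate 1 it was 0.65 with 8 of 12 higher. Macrophage markers had list means of 5.48 to 6.99 and 5.32 to 5.38, with 11 of 12 higher. The upper end was mutant replicate 2, and the other mutants were at 5.48 and 5.70. Without that array 11 of 12 were still higher, and the median log2 difference went from 0.81 to 0.26. The part of the vessel, stroma and macrophage markers in the members' values was not tested.

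Beside Efna1, whose protein is common in epithelia, 9 lens epithelium markers had list means of 9.05 to 9.16 in mutants and 9.04 to 9.55 in wild types. Of these markers 5 were higher and 4 lower in mutants, with a median log2 difference of 0.01. Without wild-type replicate 1, 0 were higher and 9 lower, with a median log2 difference of -0.22. With mutant replicate 2 left out as well they were 3 higher and 6 lower, and without wild-type replicate 2 alone 5 higher and 4 lower, with a median of 0.12. The transcription factor Foxe3 (-0.71 ± 0.29, SE, dim), the transporter Slc38a3 (-1.04 ± 0.40) and Cdh1 were apart in the same direction as Efna1. That is 3 of the 9 markers, against 4.58% of all genes apart in that direction. The list was chosen with earlier results of these data known, so this is no independent comparison. The 5 markers with higher mutant means did not separate the groups. Markers of corneal and skin epithelium had list means of 4.33 to 4.47 in mutants and 4.30 to 4.44 in wild types, and 8 of the 10 were dim. The part of these epithelial markers in the Efna1 values was not tested.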

How the data were processed

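The authors deposited 1 linear intensity per probe set and array. Per the submitters' processing notes the values come from RMA (background correction, quantile normalisation, summary of probes). Its version, the step from RMA's usual log2 output to a linear scale and the genome build are not stated in them. Here log2 was taken with no pseudocount or further normalisation, and 64 control probe sets were left out. Probe sets were named by the platform annotation of 2016. Of the tested probe sets, 20380 had 1 symbol, 691 several and 1555 none, and 20351 matched a RefSeq gene by Entrez ID.

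All probe sets were fitted with limma 3.58.1 in R 4.3.3 (lmFit, eBayes, mutant against wild type, no covariate), with two-sided p-values adjusted by Benjamini-Hochberg over 22626 probe sets. Intervals are 95% and come from that fit.

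The members and lists were chosen with earlier results of these data known. The text names all members, Cdh1, the 2 pathway genes of lowest p per list (none passed) and the 3 genes most like Epha2 and Efna5, leaving out clone and model names. Alternatives were a replicate block, median centring, quantile normalisation, a pseudocount of 16, a trended prior, array weights, no dim probe sets, fewer arrays, an adjusted p under 0.1 and, for pathway genes, averaging all probe sets of a gene.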

Additional observations from a re-analysis of the deposited data

How the results depend on the processing

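No member probe set was called under any alternative run: of 265 member values, 0 were past the threshold. The sign changed in 21 of them, and 0 reversed by more than 1 standard error on both sides. Such a reversal could not occur where the main difference was itself within 1 standard error, as for Epha2 and Efnb2 1419638_at. The latter went from 0.07 ± 0.67 (SE) to -0.68 ± 0.35 without wild-type replicate 1. A single sign under every alternative was kept by 8 of the 20 member probe sets, among them both of Efna1 (-0.80 to -0.36 and -0.93 to -0.37), that of Efna5 (-0.86 to -0.27) and that of Ephb4. Epha2 ranged from -1.18 to 0.04 and Efnb2 1419638_at from -0.68 to 0.69. Over all probe sets, limma with array weights called 7, and 0 with every other setting; with the main setting 742 had an unadjusted p under 0.05. Of the pathway genes 0 were called under any setting. The weight of wild-type replicate 3 was 5.65 against 0.224 for wild-type replicate 1, and the lowest weighted adjusted p of a member was 0.203, for Efna1. With the replicate number as a block 0 members were called and 0 probe sets in all. Mutant and wild-type arrays of the same replicate number had correlations of deviations of -0.07, -0.26 and -0.16. Arrays of unlike number were not compared, so these values do not settle whether the samples were paired. The data are limited by 3 arrays per group and by dim signal in 15 of the 20 member probe sets.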
